A study of Mus musculus with 6 samples.

Results

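The wide accessible regions described here, read as merged neighbouring peaks although the sources used here do not say how regions were made, are every deposited region of chromosomes 1 to 19 wider than the standard width, in which end and start differ by 400 bp. There are 10272 of them among 189575 regions of these chromosomes, and among 193148 regions in all. The remaining 179303 regions of chromosomes 1 to 19 all have the standard width. The rule used width alone, and not level, position or change between groups. Width may still be tied to these, since how regions were made is not known here. A wider region can also reach a start site or gene bound more easily. A further 176 wide regions on chromosome X are outside the rule.

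Chromatin accessibility was measured by ATAC-seq, in which a transposase cuts DNA that nucleosomes leave exposed, in nuclei from the mouse ventral tegmental area. All mice carried 2 injected viruses, AAV-TH-Cre and the Cre-dependent AAV-DIO-H2B-EGFP, and EGFP-positive nuclei were sorted from them. The knockdown group was Ogtflox+/Y (3 libraries) and the control group Ogtflox-/Y (3 libraries). Both groups therefore share the Cre virus and the label, and any loss of Ogt depends on a Cre vector named for TH; the sources used here give no age. The library protocol names a general DNA kit and describes no transposition step. Knockdown replicate 1 carries the floxed genotype in its genotype label and the control genotype in its title, and it was grouped by the genotype label. Over the wide regions its log2 levels had correlations of 0.963 to 0.972 with those of knockdown replicates 2 and 3, and of 0.904 to 0.922 with control. The labels do not say whether the libraries came from separate animals, so the p-values measure only the spread between these libraries.

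The product of Ogt places O-GlcNAc, a single sugar, on nuclear and cytoplasmic proteins, transcription factors and RNA polymerase among them. A peak caller reports a short interval around each summit of transposase cuts. Broad intervals are known mainly from promoters rich in CpG, where the stretch free of nucleosomes extends over the start site and often serves a pair of genes transcribed in opposite directions. In neurons, long genes for adhesion and synaptic proteins also hold many scattered enhancers.

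Library totals ran from 34384319 to 66853563 reads, and 31.0% to 38.2% of them lay in regions. A wide region held a median of 76 to 163 reads per library. The gene-end region of Th, the enzyme that makes dopamine's precursor, was among the strongest marker regions, and the levels of 13 dopaminergic marker genes with a gene-end region summed to 664 to 1185 in control and 729 to 887 in knockdown. Th alone had 443 to 943 in control and 429 to 593 in knockdown, and without it the other 12 summed to 221 to 262 and 295 to 315, which do not overlap. The sums for 7 astrocyte markers were 141 to 146 against 152 to 208, and for 7 GABAergic markers 71.6 to 106 against 120 to 148, and in neither of these lists did the groups overlap. The sums for oligodendrocyte (162 to 170 against 115 to 225), microglial (24.2 to 27.8 against 18.7 to 31.1), glutamatergic (40.5 to 48.8 against 31.3 to 48.0) and endothelial and mural markers (21.5 to 29.4 against 13.7 to 26.5) overlapped. The part that these markers have in the results was not tested, and in sorted bulk nuclei a change in cell makeup and a change in accessibility per nucleus cannot be told apart.

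Level here means RPKM: reads per kb of region, relative to the library's reads in regions after TMM scaling, the edgeR method that sets libraries to a common level over most regions.

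The widths are not spread evenly. The narrowest wide region measures 436 bp, with none between it and the standard width; the median is 714 bp, and the widest 1611 bp. Widths of 800 bp or less make up 94.3% of the set. There are 1035 regions over 780 and up to 800 bp wide and 8 over 800 and up to 820 bp; in all, 552 regions measure over 800 to 1200 bp and 38 are wider. The 76 regions of up to 500 bp, just inside the rule, had a median level of 8.65, and the standard regions just outside it 5.63. Wide regions are 5.42% of the regions of chromosomes 1 to 19 and cover 9.26% of their summed width, and their share of regions ran from 4.87% on chromosome 15 to 6.20% on chromosome 17.

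**Figure D1:**
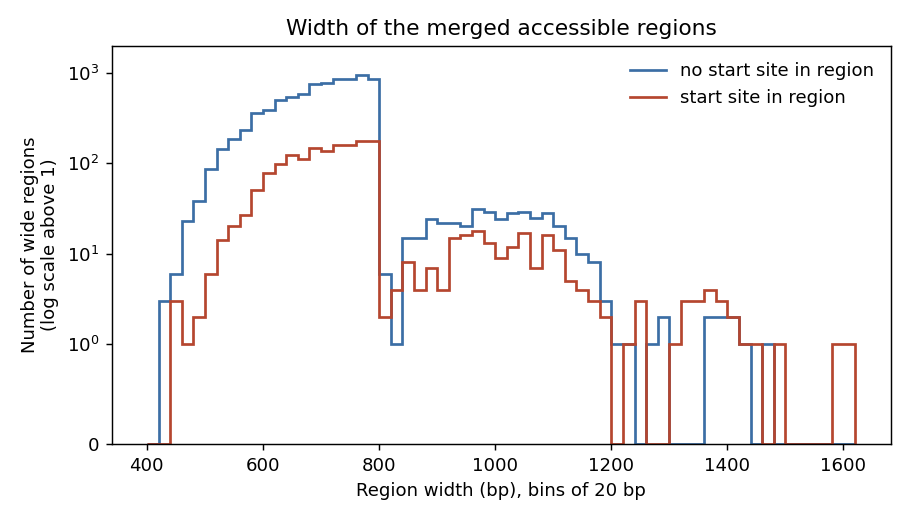
Number of wide regions (vertical axis, log scale above 1) by width in bins of 20 bp (horizontal axis), drawn separately for regions with and without a protein-coding start site. Both curves climb, with small dips, to a peak at 761 to 780 bp, fall steeply past 800 bp and form a second, lower hump, and past 1200 bp regions with a start site outnumber the rest (25 against 13).

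The widest regions were mostly promoters: of the 10 widest, 7 hold a protein-coding start site. The promoters below are those of the leading genes whose promoter lies wholly inside its wide region, though mostly not at its centre. Each runs from 250 bases before to 50 bases after the start site, 5′ to 3′ on the gene's strand, from RefSeq on GRCm38.p6 (mm10). Capitals mark matches, on either strand, to GGGCGG (the GC box), CCAAT (the CCAAT box), TATAAA (the TATA box), CCGGAAGT (an ETS-type site), CACGTG (an E-box) and TGACGTCA (a CRE); matches may overlap.
Ubr3, chr2:69896996-69897295, plus strand: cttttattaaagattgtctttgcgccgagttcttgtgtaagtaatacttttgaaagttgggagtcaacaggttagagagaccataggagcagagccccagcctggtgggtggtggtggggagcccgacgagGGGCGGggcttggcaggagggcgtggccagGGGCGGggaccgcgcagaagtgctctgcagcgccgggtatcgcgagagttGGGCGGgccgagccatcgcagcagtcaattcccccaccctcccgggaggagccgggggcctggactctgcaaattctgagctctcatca
Tial1, chr7:128461464-128461763, minus strand: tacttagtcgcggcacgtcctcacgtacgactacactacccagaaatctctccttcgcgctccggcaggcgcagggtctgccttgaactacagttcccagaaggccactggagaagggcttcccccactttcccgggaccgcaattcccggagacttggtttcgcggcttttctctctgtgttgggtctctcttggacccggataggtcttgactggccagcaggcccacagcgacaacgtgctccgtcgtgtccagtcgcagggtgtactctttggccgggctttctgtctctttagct
Kcnt2, chr1:140245468-140245767, plus strand: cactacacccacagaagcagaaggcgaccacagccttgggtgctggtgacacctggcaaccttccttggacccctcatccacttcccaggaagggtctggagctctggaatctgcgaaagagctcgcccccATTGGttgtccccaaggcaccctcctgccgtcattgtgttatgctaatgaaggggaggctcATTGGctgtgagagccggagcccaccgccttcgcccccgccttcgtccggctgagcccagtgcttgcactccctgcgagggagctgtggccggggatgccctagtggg
Ncapd2, chr6:125191537-125191836, minus strand: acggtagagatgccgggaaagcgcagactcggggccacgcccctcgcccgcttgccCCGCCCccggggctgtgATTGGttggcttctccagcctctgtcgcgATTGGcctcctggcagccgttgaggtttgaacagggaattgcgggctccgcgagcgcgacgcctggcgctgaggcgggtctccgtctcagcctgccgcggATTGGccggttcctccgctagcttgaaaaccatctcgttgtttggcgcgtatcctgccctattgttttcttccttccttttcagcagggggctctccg
Mrpl51, chr6:125191950-125192249, plus strand: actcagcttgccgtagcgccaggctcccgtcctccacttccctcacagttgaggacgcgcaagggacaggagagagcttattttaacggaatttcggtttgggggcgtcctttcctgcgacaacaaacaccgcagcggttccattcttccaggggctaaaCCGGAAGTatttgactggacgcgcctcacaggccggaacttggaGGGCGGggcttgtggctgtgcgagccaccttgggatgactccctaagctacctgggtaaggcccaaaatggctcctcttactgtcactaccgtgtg
Mtcl1, chr17:66449701-66450000, minus strand: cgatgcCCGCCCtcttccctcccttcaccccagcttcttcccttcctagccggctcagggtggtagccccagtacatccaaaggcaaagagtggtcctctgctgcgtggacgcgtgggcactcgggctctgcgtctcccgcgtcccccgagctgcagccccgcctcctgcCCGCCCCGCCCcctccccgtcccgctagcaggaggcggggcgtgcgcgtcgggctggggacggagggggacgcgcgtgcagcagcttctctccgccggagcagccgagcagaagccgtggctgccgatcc

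Ubr3 encodes a ubiquitin ligase, Tial1 an RNA-binding protein of stress granules, Kcnt2 a sodium-activated potassium channel subunit and Mtcl1 a protein that crosslinks microtubules. Ncapd2, a condensin subunit, and Mrpl51, a protein of the mitochondrial ribosome, start 614 bp apart in opposite directions inside 1 region of 1459 bp. The sequences differ in what they hold. Ubr3 and Mtcl1 have 3 GC boxes each, Ncapd2 has 3 CCAAT matches and 1 GC box, Kcnt2 has 2 CCAAT matches and none of the others, and Tial1 has no match to any of the 6 motifs in this window. The ratio of observed to expected CpG was 0.93 for Ncapd2, 0.82 for Tial1, 0.78 for Mtcl1, 0.72 for Mrpl51, 0.67 for Ubr3 and 0.41 for Kcnt2.

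The same features were counted over 20085 promoters of protein-coding genes on chromosomes 1 to 19, of which 2073 (1859 genes) have their start in a wide region, 8612 in a standard-width region and 9400 in no region. Promoters in wide regions resembled those in standard-width regions and differed from promoters outside regions. Median GC content was 62.0%, 62.0% and 49.7% in the 3 sets. A CpG ratio over 0.6 was found in 79.6% of promoters in wide regions, 73.3% in standard-width regions, 71.0% in standard-width regions weighted to the same reads per kb, and 19.8% outside regions. The GC box occurred in 67.9%, 66.3% and 24.8% (47.0% of all 20085), and TATAAA in 5.40%, 6.10% and 20.4% (12.7% of all). The CCAAT shares were 35.2%, 39.7% and 37.3% (38.1% of all), much alike in the 3 sets. CCGGAAGT was found in 9.70%, 8.19% and 1.64% (5.28% of all), CACGTG in 10.5%, 10.02% and 5.36% (7.89% of all), and TGACGTCA in 3.52%, 3.54% and 0.894% (2.30% of all). The STAT-type palindrome TTCNNNGAA was in 6.13%, 6.70% and 9.13% (7.78% of all), fewest in wide regions.

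Wide regions lay at gene ends, that is within 1000 bp of either bound of a protein-coding gene, more often than standard-width regions did. The shares were 25.3% of wide regions against 10.8% of standard-width regions, with 46.5% against 57.1% deeper within genes and 28.2% against 32.1% between genes. Since wide regions also carry more reads, the standard-width regions were weighted to the wide regions' 10 classes of reads per kb, which gave 18.4%, 53.4% and 28.1%. A start site was present in 16.5% of wide regions (1700), in 4.29% of standard-width regions and in 8.96% after the weighting. Start sites of genes running in opposite directions shared 158 wide regions, 1.54% of the set, against 0.201% of standard-width regions and 0.453% after weighting. Among regions that hold a start site the divergent share was 9.29% against 4.69%. The excess at gene ends and start sites depended on the matching. Weighted instead to the same reads per region, standard-width regions were at gene ends in 28.5%, within genes in 47.9% and between genes in 23.6%. A start site was then present in 16.4% of them and divergent starts in 1.02%. The divergent starts lay a median of 147.5 bp apart in wide regions and 109 bp apart in standard-width regions, which cannot hold starts more than 400 bp apart, so that this spacing and the share of divergent pairs are partly set by width. All these shares are counts of regions, whose positions are not independent of each other, and carry no test.

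**Figure D2:**
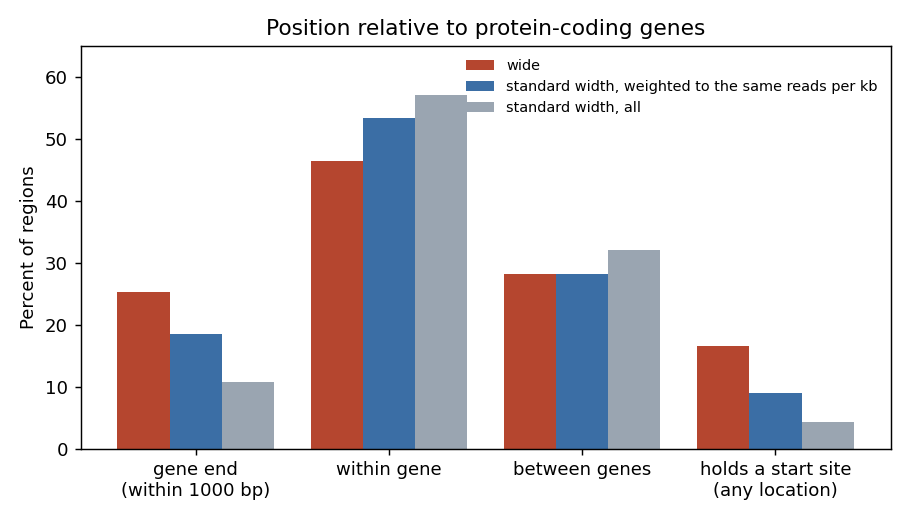
Percent of regions (vertical axis) at gene ends, within genes, between genes and with a start site, for wide regions, standard-width regions weighted to the same reads per kb, and all standard-width regions. Wide regions exceed both standard-width sets at gene ends (25.3% against 18.4% and 10.8%) and in start sites (16.5% against 8.96% and 4.29%). Standard-width regions weighted to the same reads per region, not drawn, had 28.5% and 16.4%.

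A neighbour lay within 100 bp of 7.26% of wide regions and of 5.70% of standard-width regions. If wide regions are merged neighbouring peaks, this spacing to the next separate region cannot show how close the joined peaks lay. The 10228 closely spaced standard-width regions were at gene ends in 26.4% of cases.

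The nearest protein-coding gene lay within 100000 bp for 9423 wide regions, which were assigned to 5875 genes. At least 5 fell to 223 genes, and at least 10 to 22 genes. The leaders were long neuronal genes: Rbfox1, a splicing regulator, had 17, the adhesion gene Lsamp and the teneurin Tenm2 had 16 each, and Anks1b, Dlgap1, Magi2 and Nrxn3 had 13 each. Dpp6, a potassium channel partner, and the adhesion gene Ntm had 12 each. The 10 genes with the most wide regions span 852 to 2197 kb, and 4.56% to 8.18% of their regions were wide against 5.51% of all assigned regions. Of their 137 wide regions 5 hold a start site, 14 were called higher and 25 lower in knockdown. Among all wide regions 16.5% hold a start site, 23.3% were called higher and 11.6% lower. Among wide regions within genes 16.6% were higher and 14.0% lower. Called regions in both directions were found at 195 genes; among the leaders, Dpp6 had 1 higher and 6 lower, Rbfox1 had 1 and 5, and Nrxn3 had 2 and 0.

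Wide regions were more accessible per kb than standard-width regions, but their start-site regions were not. Their median level was 9.04, 9.03 and 8.94 in control replicates 1 to 3 and 8.62, 8.57 and 8.97 in knockdown replicates 1 to 3. That of the standard-width regions was 5.68, 5.64 and 5.78 in control and 5.46, 5.53 and 5.46 in knockdown, below every library's value for the wide regions. At start sites the order turned round. Wide start-site regions had medians of 44.2, 41.7 and 40.1 in control and 50.5, 48.6 and 49.2 in knockdown, against 55.8, 53.7 and 51.7 and then 65, 60.4 and 61.8 for standard-width start-site regions. The most accessible wide region averaged a level of 164 and the most accessible standard-width region 579.

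The share of reads that falls in wide regions needs no scaling between libraries. It was 13.6%, 13.5% and 13.3% of the region reads of chromosomes 1 to 19 in control and 14.1%, 14.2% and 14.2% in knockdown, or 13.5% ± 0.132 and 14.2% ± 0.0336 (SD, n = 3), and the groups did not overlap. Wide regions with a start site took 5.90%, 5.70% and 5.62% in control and 6.44%, 6.24% and 6.21% in knockdown, again without overlap. Those without a start site took 7.70%, 7.79% and 7.71% in control and 7.69%, 7.92% and 7.98% in knockdown, where the groups overlapped. As a sum over members chosen with earlier results known, these shares carry no test.

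**Figure D3:**
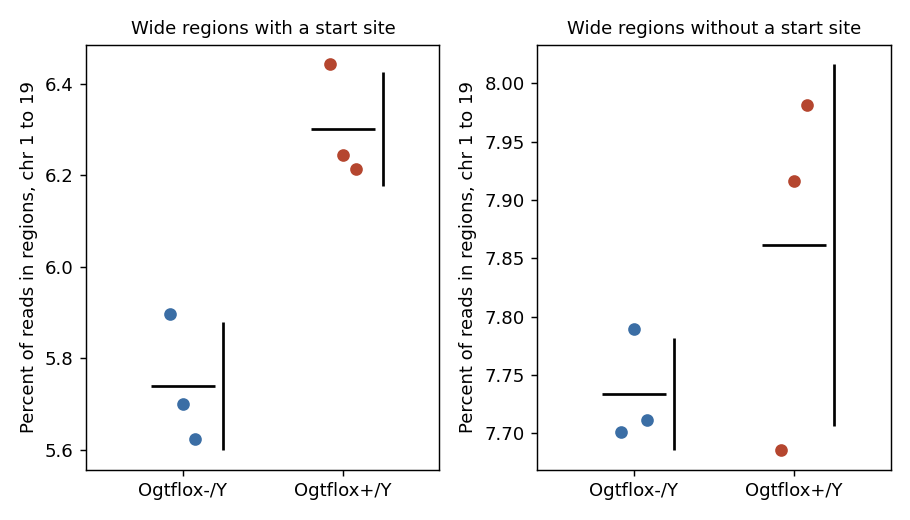
Percent of the region reads of chromosomes 1 to 19 that lie in wide regions with a start site (left) and without one (right), 1 point per library, with the mean as a horizontal line and ±1 SD as a vertical line; the axes do not start at 0. The start-site share is higher in all 3 Ogtflox+/Y libraries (6.21% to 6.44%) than in the Ogtflox-/Y libraries (5.62% to 5.90%), while the other share overlaps.

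All 10272 wide regions passed the filter on low counts, and more of them were called higher than lower in knockdown under TMM scaling: 2397 higher (23.3%) and 1187 lower (11.6%). Over all 191693 regions tested, 15.4% were called higher and 12.7% lower (edgeR quasi-likelihood test, Benjamini-Hochberg adjusted p under 0.05). The median log2 fold change of knockdown over control was 0.10 in wide regions and -0.0065 over all regions. Changes of 2-fold or more were a smaller share of the wide regions than of all regions: 450 upward (4.38%, against 6.66% of all) and 224 downward (2.18%, against 5.11%). This split depends on the scaling. Higher calls were 66.9% of the wide calls with TMM, 51.0% with scaling by reads in regions (1780 higher, 1707 lower) and 23.1% with scaling by library totals (730 higher, 2435 lower). Of all regions 11.8% were higher and 17.4% lower by reads in regions and 6.85% and 24.6% by library totals, and the median of all regions moved to -0.12 and -0.27. The median of the wide regions, at -0.011 and -0.16, lay above that of all regions in both.

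Counts also moved with single libraries. Without control replicate 2, 1579 wide regions were called higher (15.4%) and 716 lower (6.97%), and without control replicate 1 there were 748 lower (7.28%). In the fits that leave out control replicates 1 to 3 and knockdown replicates 1 to 3 in this order, 12.1%, 9.94%, 11.2%, 12.5%, 15.5% and 12.5% of all regions were called higher and 7.69%, 7.64%, 9.6%, 9.15%, 13% and 9.04% lower. DESeq2 called 1942 wide regions higher (18.9%, against 10.9% of all regions) and 819 lower (7.97%, against 7.73%). Grouping by title, which moves knockdown replicate 1 into the control group, left no wide region called in edgeR (0% of all regions either). Of the 10272 wide regions 1144 had an unadjusted edgeR p under 0.05 in that fit. The share of all regions at that threshold is not given here, so this count says nothing particular to wide regions. Groups did not overlap, with every knockdown library above every control library, at 3030 wide regions (29.5%, against 21% of all regions), and with every one below at 1867 (18.2%, against 21.2%). Calls that held in edgeR, in DESeq2 and without each library in turn numbered 1310 higher (12.8%, against 7.65% of all regions) and 523 lower (5.09%, against 5.2%).

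At matched reads per kb the wide regions kept a larger share of higher calls than the standard-width regions, which after weighting had 18.5% higher and 12.8% lower and a median log2 fold change of 0.035. The medians differed by 0.065. When the standard-width regions were weighted instead to the same reads per region, the shares were 23.5% higher and 12.8% lower, and the medians differed by 0.0065. Against closely spaced standard-width regions at the same reads per kb (22.2% higher, 6.46% lower) the difference of medians was -0.059. Position changed these differences. At equal reads per kb the medians differed by 0.0047 at gene ends, 0.056 within genes and 0.092 between genes. At equal reads per region they differed by -0.023 and 0.015 in the first 2 classes but by 0.10 between genes, where 19.9% of wide and 16.9% of weighted standard-width regions were higher. The median SD of log2 CPM between replicates was 0.158 in control and 0.184 in knockdown, against 0.185 and 0.230 in standard-width regions of the same reads per kb, which hold fewer reads, and 0.155 and 0.192 in those of the same reads per region.

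**Figure D4:**
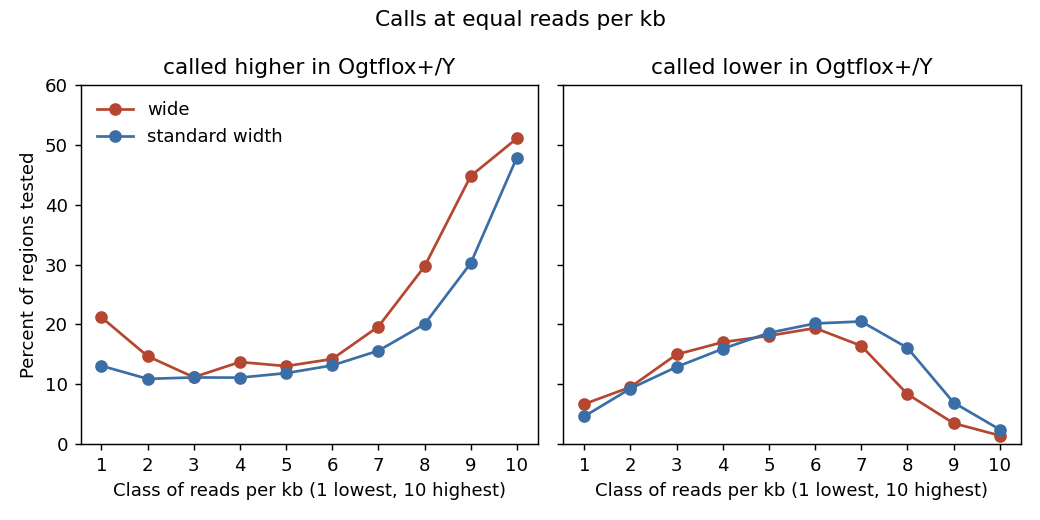
Percent of regions called higher (left) and lower (right) in Ogtflox+/Y, by class of reads per kb from 1 (lowest) to 10 (highest), for wide and standard-width regions. On the left wide regions lie above standard-width regions in the lowest class (21.2% against 13.1% higher) and in class 9 (44.8% against 30.2%). The curves there nearly meet in classes 3 and 6. On the right the order changes between classes. Wide regions lie above in the lowest class (6.71% against 4.65% lower) and below in class 8 (8.37% against 16.1%).

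Calls also differed by position, in wide and in standard-width regions. Of 2597 wide regions at gene ends 1026 were higher and 148 lower (39.5% and 5.70%), against 32.2% and 7.18% of standard-width ones. Within genes 794 of 4774 were higher and 667 lower (16.6% and 14.0%), against 11.6% and 13.4%. Between genes 577 of 2901 were higher and 372 lower (19.9% and 12.8%), against 15.2% and 13.4%. Standard-width gene-end regions at the same reads per region had 41.2% higher and 4.05% lower. Regions with a start site had 706 higher and 79 lower of 1700, and their median log2 fold change was 0.24; with library totals they had 93 higher, 201 lower and a median of -0.024. The 158 divergent start regions had 71 higher and 3 lower. Start-site regions whose promoter has a CpG ratio over 0.6 had 599 higher and 33 lower of 1347 (44.5% and 2.45%). Those with a ratio of 0.6 or less had 119 higher and 47 lower of 395 (30.1% and 11.9%). These CpG classes also differed in median level, 49.6 against 33.0, and the part of level in their calls was not tested. Regions of several promoters were counted in each class they belong to. Among standard-width start-site regions at the same reads per region, 42.3% were higher and 3.30% lower, close to the 41.5% and 4.65% of the wide ones.

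Among wide regions, the share called higher increased with width under TMM scaling. It was 14.4% up to 600 bp, 21.9% over 600 to 700 bp, 24.9% over 700 to 800 bp, 35.0% over 800 to 1200 bp and 52.6% of the 38 wider regions. The share called lower went over the same classes from 14.0% to 0 of 38. The median number of reads also increased from class to class, from 76.7 to 728, and the start-site share was 10.3%, 16.8%, 15.8%, 32.1% and 65.8%. Within start-site regions alone the higher share went from 27.4% to 68.0% (17 of 25), with median reads of 437 to 882, and within the rest from 12.9% to 27.2% over 800 to 1200 bp, with 3 of the 13 wider regions (23.1%) higher. The part of read number in this order was not tested.

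Of the 10 widest regions 6 were called higher and none lower. At the Ubr3 promoter (1611 bp, chr2:69896995-69898605) the level was 28.3, 28.4 and 28.4 in control and 40.5, 39.5 and 39.5 in knockdown. Libraries of 1 group hardly differed there and the groups lay far apart, with a log2 fold change of 0.49 (edgeR adjusted p = 0.00066, SE 0.09); with library totals it was 0.23 and not called (adjusted p = 0.12). At the Tial1 promoter (1600 bp) the levels of 57.5, 46.6 and 49.8 in control overlapped those of 59.5, 50.5 and 57.1 in knockdown, and the region was not called (edgeR adjusted p = 0.38). The Kcnt2 promoter (1484 bp) had 8.70, 10.5 and 10.1 in control and 15.4, 17.1 and 15.4 in knockdown, and it rose by 0.70 on the log2 scale (edgeR adjusted p = 0.00034, SE 0.11). The shared Ncapd2 and Mrpl51 region rose by 0.30 (edgeR adjusted p = 0.029), a call lost with library totals (0.84), by reads in regions (0.055) and without control replicate 2 (0.15), control replicate 3 (0.15) or knockdown replicate 3 (0.11). The divergent promoter of Anapc13, a subunit of the anaphase-promoting complex, and Cep63, a centrosome protein (1404 bp, chr9:102625670-102627073), went from 46.3, 41.9 and 38.9 to 70.5, 60.7 and 58.0, a log2 fold change of 0.58 (edgeR adjusted p = 0.00054, SE 0.10). Here every knockdown library exceeded every control library.

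The remaining 5 of the widest set differed in their calls. The Mtcl1 promoter rose from 36.1 ± 1.36 to 50.7 ± 1.43 (SD, n = 3; edgeR adjusted p = 0.00072), and with library totals was not called (0.13). A region 371280 bp from Cobl, an actin nucleator, rose from 2.37 ± 0.720 to 4.70 ± 0.948 (SD, n = 3; edgeR adjusted p = 0.0051). The Nasp promoter, of a histone chaperone gene, and regions inside Srrm4, a neuronal splicing factor, and Zfp608 were not called (edgeR adjusted p = 0.27, 0.17 and 0.096); Zfp608, with a log2 fold change of -0.38, was called lower without knockdown replicate 3 (0.016), with library totals (0.019) and by reads in regions (0.030).

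The 10 wide regions with the most reads per kb all lie within gene bounds, 9 of them at start sites, with control means of 106 to 154. The highest was the promoter of Fkbp2, an isomerase of the endoplasmic reticulum, with 173, 137 and 151 in control and 193, 153 and 179 in knockdown, which overlap. The promoters of the transcription factor Sp2, of Ddx54 with Rita1, and of the trafficking gene Tom1 were not called either (edgeR adjusted p = 0.75, 0.38 and 0.079; Tom1 passed without control replicate 1, at 0.022, and without knockdown replicate 2, at 0.031, as did Fkbp2 without the latter, at 0.033). Called higher were Stt3b, of the N-glycosylation machinery, Jund, an AP-1 subunit, Spag7, the divergent pair 2810006K23Rik and Mphosph9, the chromatin reader Ing1 and Esrra, a nuclear receptor of mitochondrial genes. Their log2 fold changes were 0.27 to 0.43, and all 6 calls were lost with library totals. Esrra, with 116, 99.2 and 102 in control and 152, 120 and 155 in knockdown (log2 fold change 0.43, edgeR adjusted p = 0.0060, SE 0.11), was the 1 of the 6 whose call held without each library in turn. The other 5 were lost without control replicate 2 and without control replicate 3 (edgeR adjusted p = 0.065 to 0.22). In all 10 of these regions knockdown replicate 2 was the lowest knockdown library.

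The largest gains and losses were mostly away from start sites, as were wide regions as a whole. Of all wide regions 16.5% hold a start site and 28.2% lie between genes. None of the 10 largest gains holds a start site and 7 lie between genes. Their control levels were 0.522 to 2.40, resting on 3 to 49 reads per library. A region 8217 bp from Tgfa, a growth factor of the EGF family (chr6:86186107-86186821), had levels of 0.956, 1.04 and 0.926 in control and 13.5, 3.54 and 8.36 in knockdown, a log2 fold change of 3.11 (edgeR adjusted p = 2.5e-05, SE 0.38). A region 2369 bp from Tap2, the antigen peptide transporter, had 2.69, 2.51 and 1.99 and then 20.1, 6.87 and 16.5. In both, knockdown replicate 2 lay well below the other knockdown libraries and still above control; it was the lowest knockdown library in 7 of these 10 regions and in 49.0% of all wide regions called higher. A region inside Zfp407 showed no such gap, with 0.883, 0.907 and 0.943 in control and 5.27, 5.92 and 5.51 in knockdown (log2 fold change 2.59, edgeR adjusted p = 5.4e-06, SE 0.27). A region inside Eipr1, a gene of endosomal recycling, went from 0.587, 1.46 and 1.58 to 6.71, 9.998 and 8.30, with knockdown replicate 2 the highest. The other gains were near Hdgfl1, at 191515 bp, which had the largest log2 fold change (3.30, SE 0.42, edgeR adjusted p = 3.4e-05), near Golga7, Fhl4, Zfp703 and Chd1, a chromatin remodeller, and inside Igsf11.

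Of the 10 largest losses 1 holds a start site. It is at Egr2, an immediate early transcription factor that neuronal activity induces (593 bp, chr10:67537337-67537929), with 23.8, 25.4 and 29.4 in control and 8.28, 5.34 and 6.94 in knockdown. The highest knockdown library lay below the lowest control library by a wide margin, a log2 fold change of -1.93 (edgeR adjusted p = 7.7e-07, SE 0.17). A region 7552 bp from Jade2, a scaffold of a histone acetyltransferase complex, went from 22.8, 23.8 and 22.8 to 5.22, 6.16 and 6.98 (log2 fold change -1.91, edgeR adjusted p = 2.5e-07, SE 0.15). A region 4876 bp from Nin, a centrosome gene, went from 13.5, 11.4 and 11.1 to 3.33, 2.84 and 2.66. In these 3 the spread within each group was small beside the gap between groups. Control replicate 1 was the highest control library in 6 of the 10 and in 57.5% of all wide regions called lower. It stood well above the other controls at Rap2a (153972 bp away; 14.9 against 8.47 and 6.56) and inside Parn, a deadenylase gene (18.6 against 11.9 and 8.81), and likewise at Adamtsl1, Atp13a5 and Cacna1b, with 7.85, 7.10 and 10.6 against 3.00 to 7.43. The regions of Adamtsl1, Atp13a5 and Tmem241 lay inside these genes, and the others near Cacna1b, an N-type calcium channel gene, and Ythdf1, a reader of methylated RNA.

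**Figure D5:**
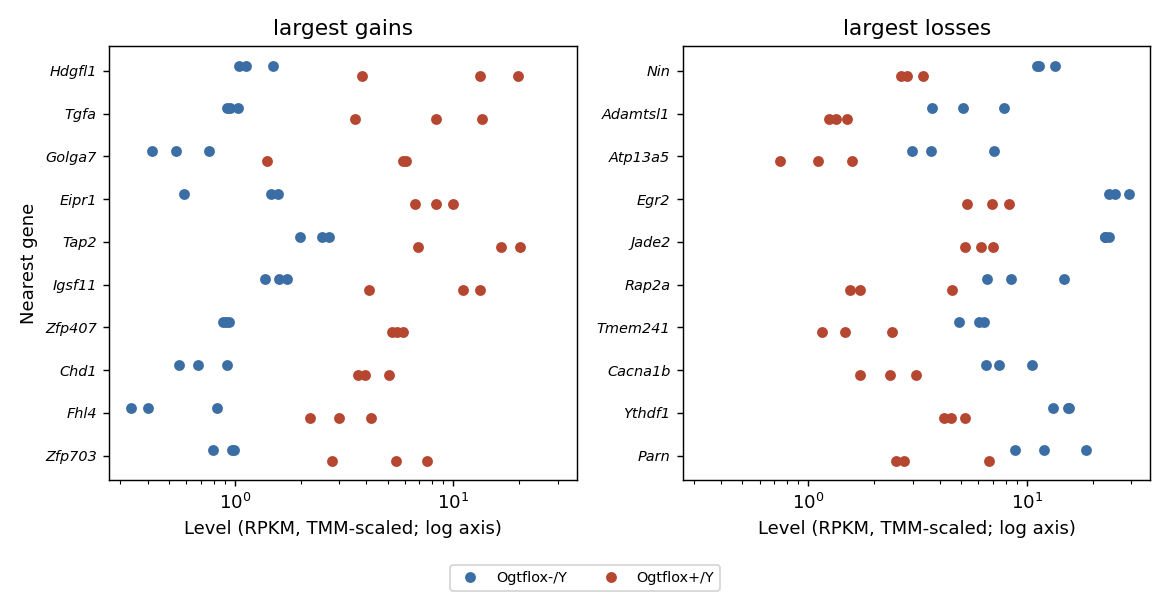
Level (RPKM after TMM scaling, log axis) of the 10 wide regions with the largest gains (left) and the 10 with the largest losses (right), named by nearest gene, 1 point per library. Because these regions were chosen among calls that held in both tools and without each library, separation of the groups was favoured beforehand. In each row the 3 Ogtflox+/Y points lie on 1 side of the 3 Ogtflox-/Y points, and on the left 1 Ogtflox+/Y library often falls short of the others, as at Tgfa (3.54 against 13.5 and 8.36).

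Gene lists place these calls; a region belongs to a list when its nearest gene, within 100000 bp, is a list gene, and counts are to be read beside the 23.3% higher and 11.6% lower of all wide regions. Of 14 dopaminergic genes 6 had 8 wide regions, none called in edgeR in either direction (1 at Lmx1a had adjusted p = 0.054), and 3 were called lower with library totals, 1 by reads in regions and 2 without knockdown replicate 2. Th, the transporters Slc6a3 and Slc18a2, Pitx3 and Drd2 had no wide region. Nr4a2, the nuclear receptor that maintains dopaminergic identity, had the most accessible one (chr2:57114370-57115130), with 29.6, 28.8 and 34.4 in control and 24.6, 34.8 and 27.6 in knockdown, fully overlapping (log2 fold change -0.10, edgeR adjusted p = 0.59). A second Nr4a2 region of 1162 bp had means of 15.4 ± 2.68 and 15.3 ± 3.34 (SD, n = 3).

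Markers of other cell types had 16 wide regions, of which 5 were called higher and 2 lower. A region of 1089 bp lying 1026 bp from Tbr1, a factor of cortical glutamatergic neurons, had 3.76, 4.84 and 4.86 in control and 9.29, 10.5 and 9.14 in knockdown (log2 fold change 1.09, edgeR adjusted p = 0.00018, SE 0.16). The region at the end of Cldn5, a tight-junction gene of endothelium, fell from 7.33, 8.68 and 9.37 to 4.45, 2.46 and 4.78 (log2 fold change -1.11, edgeR adjusted p = 0.0025, SE 0.24). Both held in every scaling. Astrocytic Slc1a2, a glutamate transporter gene, was called higher (14.1 ± 2.86 against 21.4 ± 5.05, SD, n = 3), though its groups overlapped and the call was lost with library totals and without control replicate 2, control replicate 3 or knockdown replicate 3, while Slc1a3 and Aldh1l1 were not (edgeR adjusted p = 0.13 and 0.15). Inside Mbp, the myelin basic protein gene, 1 region was higher (0.64 on the log2 scale) and 1 lower (-0.48). A region 28563 bp from Sox10 was called higher with a knockdown SD of 10.8 around a mean of 14.1, so the knockdown libraries differed widely. Both higher calls were lost in DESeq2, with library totals and without control replicate 1, control replicate 3 or knockdown replicate 1, and that inside Mbp also by reads in regions and without control replicate 2. The lower call was lost without control replicate 1, control replicate 2, knockdown replicate 1 or knockdown replicate 3. The start of Slc32a1, the GABA vesicular transporter, had 24.8, 28.6 and 22.6 against 38.7, 29.1 and 29.2 (edgeR adjusted p = 0.052), a region 59761 bp from Sox14 was called higher (0.037; lost in DESeq2, in both other scalings and without control replicate 1, control replicate 3 or knockdown replicate 1), and a region inside P2ry12 of microglia was not called (0.25).

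The immediate early genes had 9 wide regions, 1 higher and 2 lower with TMM and 0 higher and 3 lower with library totals, and the 4 Egr genes differed. The higher one, Jund, was lost without control replicate 2, control replicate 3 or knockdown replicate 1. Besides Egr2, a region 4576 bp from Egr4 fell, with 35.5, 32.5 and 37.7 in control and 16.0, 18 and 21.1 in knockdown (log2 fold change -0.93, edgeR adjusted p = 8.3e-05, SE 0.13). The wide regions of Egr1 and Egr3 had means of 69.1 ± 4.26 and 71.3 ± 4.49, and of 34.6 ± 0.467 and 34.2 ± 1.61 (SD, n = 3). Those at the starts of Fos and Fosb were not called (edgeR adjusted p = 0.061 and 0.36).

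The STAT3 pathway, which carries cytokine signals to the nucleus, had 18 wide regions at 11 of 22 genes, with 6 higher and 1 lower with TMM, 5 and 1 by reads in regions, and 2 and 1 with library totals. The start of Socs1, a feedback inhibitor, had 63.3, 60.8 and 56.3 in control and 95.8, 86.5 and 97.2 in knockdown (log2 fold change 0.63, edgeR adjusted p = 0.00014, SE 0.09). A region 6994 bp from Stat3 itself rose from 1.04, 1.25 and 1.01 to 4.84, 1.93 and 3.55, with knockdown replicate 2 nearest to control (log2 fold change 1.62, edgeR adjusted p = 0.0021, SE 0.34). Groups did not overlap at either. The start of Cebpb and a region inside Bcl2l1, a survival gene, also rose, by 0.56 and 0.63 on the log2 scale. For Socs3, a second inhibitor, a region 11204 bp away fell by 0.42 (edgeR adjusted p = 0.023), a call lost without control replicate 2 (0.14), control replicate 3 (0.061), knockdown replicate 1 (0.059) or knockdown replicate 2 (0.052), and another at 25678 bp was not called (0.16).

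Among 11 genes of O-GlcNAc cycling and hexosamine synthesis, Gfpt1 and Uap1 had 1 wide region each; Oga, which removes the sugar, had none. The start of Gfpt1, whose enzyme commits sugar to hexosamine synthesis, had 88.9, 78.9 and 80.5 in control and 105, 110 and 117 in knockdown. The groups did not overlap (log2 fold change 0.42, edgeR adjusted p = 0.0027, SE 0.09), but with library totals the change was 0.16 and not called (0.30). The standard-width gene-end region of Ogt on chromosome X, outside the set, had 27.6, 27.6 and 22.6 in control and 44.6, 37.3 and 36.6 in knockdown, and does not check the genotype labels because the sources used here do not say which exons are floxed.

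Among housekeeping lists, ribosomal protein and spliceosome genes had wide regions chiefly at promoters and gene ends. Of the 14 wide regions of heat shock and chaperone genes, 6 overlapped a gene and 2 held a start site. Ribosomal protein genes had 16 (5 higher, 1 lower; 0 and 2 with library totals; 2 higher in DESeq2 and by reads in regions; 1 to 2 higher without control replicate 2, control replicate 3 or knockdown replicate 1; 0 lower without control replicate 3, knockdown replicate 1 or knockdown replicate 3). The Rps29 end region of 1037 bp went from 49.3, 42.2 and 42.1 to 67.7, 60.4 and 63.9 (log2 fold change 0.53, edgeR adjusted p = 0.00080; 0.087 with library totals), while Rps23 overlapped between groups (edgeR adjusted p = 0.47). Spliceosome genes had 13 (6 higher, 0 lower; 0 and 1 with library totals, 4 and 0 with reads in regions; without control replicate 2, control replicate 3 or knockdown replicate 1, 3 higher, and without knockdown replicate 2, 1 lower). The start of Tra2a, a splicing regulator, had 43.5, 43.5 and 44.0 in control and 58.1, 58.4 and 54.8 in knockdown, and the divergent start of Hnrnpk and Rmi1 had 83.3, 73.8 and 70.0 and then 116, 92.1 and 97.2. Both were called with TMM (edgeR adjusted p = 0.0047 and 0.0054) and neither with library totals (0.42 and 0.30). Heat shock and chaperone genes had 14 (6 higher, 2 lower; 1 and 4 with library totals; 3 higher without control replicate 3, and 1 lower in DESeq2 and without any 1 of the controls or knockdown replicate 1), with 11% of their regions wide against 5.51% of all assigned regions. A region 5234 bp from Hspa1b, whose coding sequence is nearly the same as that of Hspa1a, rose from 4.84, 4.92 and 4.72 to 9.10, 10.7 and 10.3 (log2 fold change 1.06, edgeR adjusted p = 0.00049, SE 0.18). The start of Hsph1 overlapped between groups, while a region 10797 bp away fell from 15.5, 12.2 and 15.4 to 7.23, 10.1 and 8.22 (edgeR adjusted p = 0.0031).

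Synaptic and ion channel genes had the most, 97 wide regions at 27 of 35 genes, with 18 higher and 9 lower with TMM, 17 and 19 when scaled by reads in regions and 9 and 23 by library totals. Of their 2245 regions only 4.32% were wide, against 5.51% of all assigned regions. Without control replicate 1, control replicate 2, knockdown replicate 1 or knockdown replicate 3, 4 to 5 were lower, without knockdown replicate 2, 14, and in DESeq2, 4. A region inside Grin2a, an NMDA receptor subunit gene (chr16:9768976-9769648), had 2.37, 2.90 and 1.897 in control and 8.08, 8.70 and 9.47 in knockdown (log2 fold change 1.86, edgeR adjusted p = 2.1e-05, SE 0.22). A region inside Grin2b, which encodes another subunit of that receptor (chr6:135784221-135784979), moved the other way, from 12.8, 10.6 and 8.91 to 3.68, 2.50 and 5.69 (log2 fold change -1.41, edgeR adjusted p = 0.00045, SE 0.24). A single gene held both directions too: inside the calcium channel gene Cacna1c 1 region rose by 1.06 and 1 fell by 0.92 on the log2 scale. The end region of Nrxn2 rose from 72.9 ± 4.90 to 105 ± 10.01 (SD, n = 3; edgeR adjusted p = 0.00082; 0.097 with library totals).

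Homeodomain, Pax and Fox regulators, which set neuronal identity, had 30 wide regions at 20 of 60 genes, none at a start site, with 5 higher and 2 lower with TMM, 3 and 4 by reads in regions, and 3 and 6 with library totals; without control replicate 1 or 3, 3 were higher, and without control replicate 2, 1 was lower. Inside Pax7 a region rose from 1.51 ± 0.268 to 3.71 ± 0.748, and inside Lhx6, a factor of interneurons, a region fell from 6.81 ± 1.29 to 3.06 ± 0.306 (SD, n = 3; edgeR adjusted p = 0.0026 and 0.0014). In both the groups did not overlap.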

How the data were processed

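Regions were described in 6 ATAC-seq libraries, 3 per group by the genotype label. The authors' deposited tables share 193148 regions with raw read counts, RPKM and a signal score per library, per the file headers; the counts were tested, the deposited RPKM gave the library totals and the deposited signal was not used. Per the submitters' processing notes, MACS2, Picard, SAMtools 1.9, BWA, Trimmomatic and FastQC were used on mm10, without roles; the sources used here do not say how regions were joined, how reads were counted or whether reads were shifted for transposase binding. Counts were fitted over all regions with edgeR 4.0.16 in R 4.3.3 (TMM, the package's filter on low counts, quasi-likelihood test, group as the only term), which was tested on simulated data, with DESeq2 1.42.0 as an alternative. Correlations and SDs used log2 of CPM plus 0.1. Gene bounds and promoters came from RefSeq tables of GRCm38.p6, with 21887 protein-coding genes, of which 17492 have 1 of 21263 promoters in the table; exons and introns were not distinguished, and a missing promoter counts as no start site. The members and lists were chosen with earlier results of these data known. All 307 entries of the 15 lists matched by symbol. Named regions are the 10 widest, the 10 with most reads per kb, and the 10 largest changes each way among those called in both tools and without each library with at least 1 CPM in the higher group. For each list the most accessible region and up to 2 such changes each way were taken, with the wide regions of 9 genes of interest and the 10 genes with most regions. Some regions that these rules choose are not reported here. Other list regions in the text were chosen after their values were seen. Weighting to 10 classes used every standard-width region tested. Shares of counts cover no biological error.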

Additional observations from a re-analysis of the deposited data

How the results depend on the processing

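With TMM scaling 2397 wide regions were called higher and 1187 lower, with a median log2 fold change of 0.10, which was 0.065 above the weighted standard-width regions. Library totals gave 730 higher, 2435 lower and a median of -0.16; reads in regions gave a median of -0.011. Grouping by title gave 0 and 0 calls (1144 of 10272 wide regions at an unadjusted edgeR p under 0.05), a median of 0.059 and a difference of 0.050. Leaving out 1 library gave 1579 to 2426 higher, 716 to 1214 lower, medians of 0.090 to 0.11 and differences of 0.058 to 0.073. An end-to-start distance over 800 bp left 590 regions, with 213 higher (36.1%) and 40 lower (6.78%), a median of 0.20 and a difference of 0.11. The difference was 0.0065 with reads per region, 0.049 with reads per kb and location, and -0.059 against closely spaced standard-width regions, an alternative chosen after seeing the data. Gene ends of 3000 bp gave 31.0% at gene ends, 42.8% within and 26.3% between genes. The mean read share was 1.47% in control and 1.62% in knockdown over 800 bp, and 14.1% in knockdown over 500 bp. DESeq2 (1942 higher, 819 lower) and no filter (2387 and 1196) kept both counts within 1.5 times. No named region changed sign with its call, and the calls of 16 of 70 named regions were lost with library totals and of 55, all that were called, with grouping by title. The cause of these differences between settings was not tested. No paired analysis was possible because the title numbers (1, 3 and 5 in control, 2, 4 and 6 in knockdown) share none. Depth limits the weakest regions: 5 to 76 wide regions per library had under 10 reads.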
